A study of Homo sapiens with 4 samples.

Results

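The assembly factors of respiratory complex I were examined in Kit225, an established line of human T cell leukaemia kept growing by interleukin-2. The 10 genes are NDUFAF1 to NDUFAF7, ACAD9, ECSIT and NUBPL. They were read through every Affymetrix HG-U133 Plus 2.0 probe set that the platform annotation assigns to one gene, that gene being a factor, which gave 17 probe sets of the 54613 tested (10 of 19775 genes). Of these genes, 5 had 1 probe set, 3 had 2 and 2 had 3. RNA came from 2 samples treated with NC1153, known as an inhibitor of the kinase JAK3 downstream of that cytokine, and from 2 samples given its solvent DMSO, all harvested after 12 hours in medium with interleukin-2. Per the labels NC1153 was at 25 mM and DMSO at 0.1%; whether the dose unit is right could not be settled. Nothing states whether the samples came from separate cultures, and p-values then reflect spread among these 4 samples that may be technical.

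Complex I passes electrons from NADH to ubiquinone in the inner mitochondrial membrane and pumps protons. Its many subunits are joined as modules: the Q module around the ubiquinone site, the membrane arm, and the N module that binds NADH. Assembly factors bind the intermediates, modify subunits or bring in cofactors, and leave before the complex is finished. Growing T cells use respiration alongside glycolysis, and inherited defects in these factors cause complex I deficiency.

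Of the 10 genes, 1 was called: NDUFAF4, a factor of the Q module, which fell with NC1153. Its signal averaged 1844 ± 325 on the NC1153 arrays and 4694 ± 204 on the DMSO arrays (SD, n = 2 each). The fall was 2.57-fold when taken from the mean log2 signals. The other 9 genes had log2 changes between -0.48 and 0.35 and did not pass. By the same fit 5.94% of all genes were called, 3.09% as higher and 2.84% as lower with NC1153, so a count of 1 in 10 is near the background, and the account below is of NDUFAF4 itself beside its partners. Calls are limma fits across the whole array with a Benjamini-Hochberg adjusted p under 0.05, and a change is the log2 signal with NC1153 minus that with DMSO. Each gene is represented by its brightest probe set. The shares over all genes, here and below, include dim genes and are not matched to the lists for brightness. With probe sets at or below the array-wide median signal left out, limma called 3309 of 27306, against 2033 of 54613 over all.

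The arrays differ in quality measures that bear on all values. Per the authors' deposited table, the scaling factor was 6.68 and 2.97 for NC1153 replicates 1 and 2, against 2.88 and 2.66 for DMSO replicates 1 and 2, the largest factor belonging to NC1153 replicate 1. The actin 3'-to-5' ratio, which grows as RNA degrades, was 4.47 and 3.89 with NC1153, against 3.54 and 3.82 with DMSO, per the authors' deposited table. The same ratio for GAPDH there was 0.93 and 0.92 with NC1153, against 0.91 and 0.94 with DMSO, so the groups overlapped. The scaling factor and the actin ratio were each higher on both NC1153 arrays than on both DMSO arrays, and so ran with treatment. So did the mean log2 signal of spiked-in controls, at 12 and 11.66 with NC1153, against 11.46 and 11.34 with DMSO. The part of these measures in the results was not tested. In all, 2033 probe sets were called (3.72%), 1062 higher (1.94%) and 971 lower (1.78%), and 1130 were called without NC1153 replicate 1. Of the 17 member probe sets, 1 was called. The authors' deposited table names the arrays with a number shared by NC1153 and DMSO of the same replicate, whose meaning is not stated. With the replicate as a block 3997 probe sets were called, and adjusted p-values from that fit are given where a call changed. Centring each array on spiked-in controls gave 85 higher and 1019 lower and moved the median change of all probe sets from 0.022 to -0.41. Of 13 T cell markers, 7 lay above the array-wide median signal of 59.0, among them CD2, CD4 and the interleukin-2 receptor chain IL2RA, while CD3D, CD3E, CD3G, CD5, CD28 and LCK lay below it on average. IL2RB was the marker called, with signals of 1101 and 946 with NC1153, against 7485 and 6421 with DMSO. CD4 and CD2 had log2 changes of -0.58 each and did not pass (limma adjusted p = 0.10 and 0.14). With IL2RB they were the 3 of 13 with an unadjusted p under 0.05 (23.1%, against 20.3% of all genes). Of the 13 changes, 8 were negative and 5 positive. The summed signals of the T cell markers were 36910 and 31490 with NC1153, against 45570 and 44480 with DMSO. The summed signals of 5 B cell markers were 582 and 356 with NC1153, against 441 and 401 with DMSO. Those of 6 myeloid markers were 1710 and 1152 with NC1153, against 2207 and 1543 with DMSO, most of it from S100A8. Those of 3 erythroid markers were 898 and 536 with NC1153, against 938 and 843 with DMSO, most of it from EPOR. Limma called 0 genes of the B cell, myeloid and erythroid lists, and 1 (EPOR) had an unadjusted p under 0.05. The adjusted p was 0.58 for MS4A1, 0.79 for CD79B, 0.42 for MPO, 0.54 for S100A8, 0.26 for EPOR and 0.79 for ALAS2. The part of other cell types in the results was not tested. In bulk RNA, fewer cells of a type and less RNA per cell cannot be told apart.

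NDUFAF3 and NDUFAF4 bind each other and hold the early Q module. The brighter NDUFAF4 probe set, 219006_at, had signals of 1614 and 2074 on NC1153 replicates 1 and 2, against 4838 and 4550 on DMSO replicates 1 and 2. Both NC1153 arrays lay well below both DMSO arrays. The log2 change was -1.36 (SE 0.16, limma adjusted p = 0.0034), and it was -1.58 within replicate 1 and -1.13 within replicate 2.

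The second NDUFAF4 probe set, 227559_at, had signals of 518 and 280 with NC1153, against 712 and 662 with DMSO. The groups again did not overlap, but the NC1153 arrays differed from each other by more than the DMSO arrays did. Its log2 change of -0.85 did not pass (limma adjusted p = 0.18, and 0.034 with the replicate number as a block). Without NC1153 replicate 1 it was -1.29 and passed (adjusted p = 0.046), and without NC1153 replicate 2 it was -0.40 (adjusted p = 0.31).

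The authors' deposited table, made by RMA and limma with a Storey q-value limit of 0.05, lists both NDUFAF4 probe sets as lower and none of the other 15 member probe sets. In the authors' deposited table the probe set 219006_at had RMA log2 values of 9.47 and 9.48 with NC1153, against 10.75 and 10.54 with DMSO, a difference of -1.17. For 227559_at the authors' deposited table gives 6.96 and 6.71 with NC1153, against 7.91 and 7.72 with DMSO, a difference of -0.98. That table holds 4.12% of all tested probe sets, 1.69% as lower, and it rests on the same 4 arrays.

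**Figure D1:**
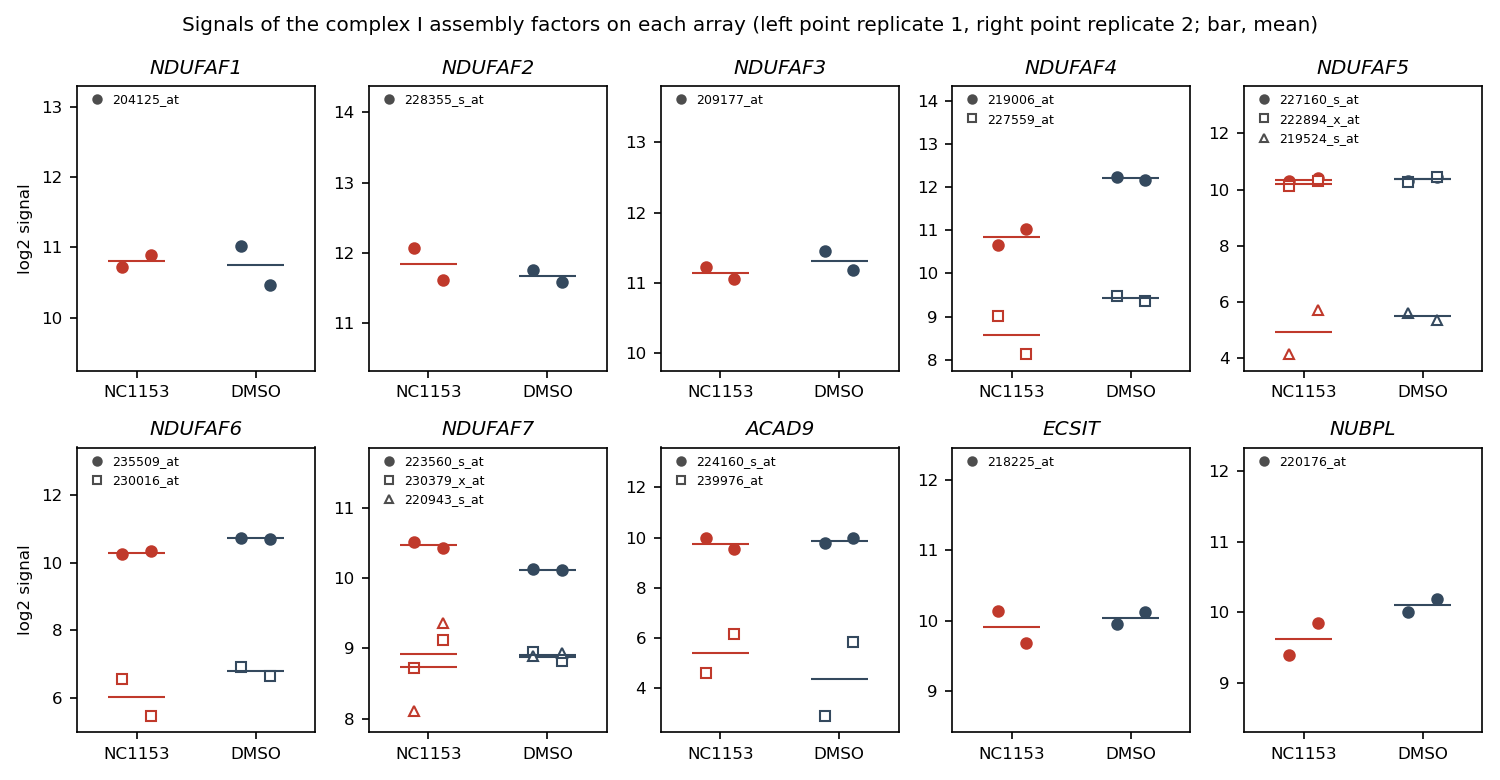
Log2 signal of each probe set of the 10 assembly factors on the 2 NC1153 arrays (red, left) and the 2 DMSO arrays (dark, right), with a bar at the mean of each pair; each panel has its own axis range. Both probe sets of NDUFAF4 lie lower on both NC1153 arrays, while most other panels show overlapping groups or small gaps.

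The NDUFAF4 call was lost in 2 settings, while the change itself was not smaller there. Without a trend in the prior variance 219006_at had the same log2 change of -1.36 with adjusted p = 0.46, a setting in which limma called 0 probe sets of the array and 5300 had an unadjusted p under 0.05. With each array centred on its median the change was -1.45 with adjusted p = 0.19, where 47 probe sets were called. It passed under the other 9 refits, quantile normalization and spike-in centring among them, with log2 changes between -1.79 and -1.18.

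**Figure D2:**
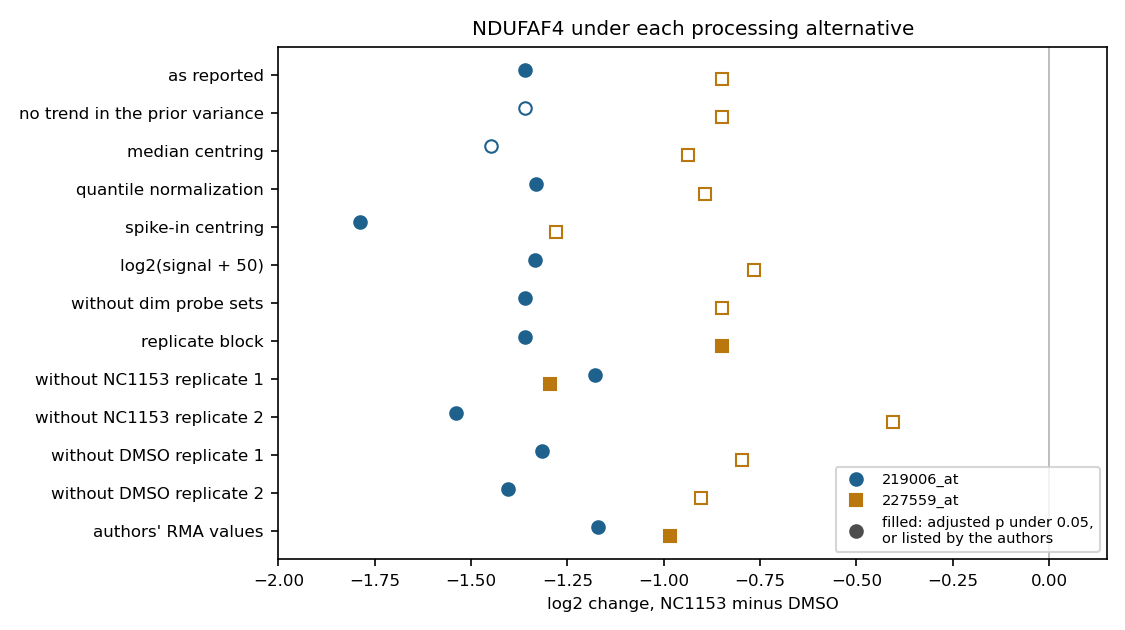
Log2 change of both NDUFAF4 probe sets (circles 219006_at, squares 227559_at) under each processing alternative; filled symbols passed the adjusted threshold or were listed by the authors. The values run from -1.79 to -1.17 for 219006_at and from -1.29 to -0.40 for 227559_at, all below 0.

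NDUFAF3, the binding partner, had signals of 2396 and 2120.1 with NC1153, against 2799 and 2321 with DMSO. The groups overlapped, and the log2 change of -0.18 did not pass (adjusted p = 0.68). The log2 ratio of NDUFAF4 to NDUFAF3 within each array was -0.57 and -0.03 with NC1153, against 0.79 and 0.97 with DMSO. The ratios differed by -1.18 between the groups without overlap (exact permutation p = 0.333, two-sided, the smallest that 2 against 2 arrays can give). A single scaling factor per array cancels in such a ratio, while effects that differ between probe sets do not. The ratio holds the same NDUFAF4 signals as the call above.

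Against the mean log2 signal of the 9 other factors, NDUFAF4 lay 0.15 and 0.60 above it with NC1153, against 1.67 and 1.62 above it with DMSO. That difference of -1.27 was likewise without overlap (exact permutation p = 0.333, two-sided, again the smallest possible). This ratio sets the called gene against the rest and holds the same NDUFAF4 signals, so it adds no test beyond the call.

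The remaining Q module factors modify subunits or help place them. NDUFAF5, which hydroxylates an arginine of the subunit NDUFS7, had signals of 1253 and 1362 with NC1153, against 1254 and 1397 with DMSO. Arrays of the same number were almost equal, and the log2 change was -0.02 (95% interval -0.38 to 0.34, adjusted p = 0.98). A second NDUFAF5 probe set, 222894_x_at, gave -0.15. The third, 219524_s_at, was dim, with signals of 17.5 and 52.3 with NC1153, against 48.3 and 41.1 with DMSO. Its 95% interval ran from -2.78 to 1.67, so it sets little limit on a change.

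NDUFAF6, a relative of squalene and phytoene synthases needed for an early step, had signals of 1234 and 1299 with NC1153, against 1708 and 1678 with DMSO. Both NC1153 arrays lay below both DMSO arrays, and replicates were close. The log2 change of -0.42 had an unadjusted p of 0.021 and did not pass (adjusted p = 0.20). Its other probe set, 230016_at, had a value of -0.77 with signals of 95.2 and 44.4 with NC1153, against 122 and 101 with DMSO (adjusted p = 0.64).

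NDUFAF7, a mitochondrial protein arginine methyltransferase, had signals of 1455 and 1377 with NC1153, against 1119 and 1106 with DMSO. It was the member gene with both NC1153 arrays above both DMSO arrays, with a log2 change of 0.35 that did not pass (adjusted p = 0.32) and was -0.08 with spike-in centring. Its 2 other probe sets did not share that pattern. For 230379_x_at the change was 0.03, and for 220943_s_at it was -0.18, with signals of 275 and 658 with NC1153, against 475 and 488 with DMSO.

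NDUFAF1, ACAD9 and ECSIT form the core of the MCIA complex, which assembles part of the membrane arm. NDUFAF1 had signals of 1688 and 1895 with NC1153, against 2075 and 1418 with DMSO. The DMSO arrays enclosed both NC1153 arrays, and the log2 change was 0.06 (95% interval -0.38 to 0.50).

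ACAD9, a member of the acyl-CoA dehydrogenase family that serves complex I assembly, had signals of 1009 and 742 with NC1153, against 886 and 1001 with DMSO. ECSIT, known also as an adaptor of Toll-like receptor signalling, had signals of 1128 and 820 with NC1153, against 988 and 1118 with DMSO. Both genes thus had their lowest signal on NC1153 replicate 2, with log2 changes of -0.12 and -0.13 that did not pass (adjusted p = 0.86 and 0.85). The log2 ratio of ACAD9 to ECSIT stayed between -0.16 and -0.15 on the 4 arrays, which is given as a description of this pair. NDUFAF1, the other core gene, instead had its lowest signal (1418) on DMSO replicate 2. The dim ACAD9 probe set 239976_at varied between 7.40 and 70.7 over the arrays, with no separation of the groups. TMEM126B, the membrane protein of the same complex, had a log2 change of -0.03 (adjusted p = 0.96).

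NDUFAF2 and NUBPL act on or near the N module. NDUFAF2, a relative of the subunit NDUFA12 that binds a late intermediate, had signals of 4285 and 3148 with NC1153, against 3449 and 3070.2 with DMSO, and a log2 change of 0.17 (adjusted p = 0.73). NDUFA12 itself had a value of 0.11 (adjusted p = 0.80).

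NUBPL, a P-loop protein that supplies iron-sulphur clusters to complex I, had signals of 671 and 918 with NC1153, against 1030 and 1170 with DMSO. The groups did not overlap. The log2 change of -0.48 had an unadjusted p of 0.039 and did not pass (adjusted p = 0.28). Its relative NUBP1, of the cytosolic iron-sulphur pathway, had a value of -0.76 with signals of 802 and 483 with NC1153, against 1139 and 972 with DMSO (adjusted p = 0.16). NUBP1 passed with the replicate block (adjusted p = 0.021) and without NC1153 replicate 1 (-1.12, adjusted p = 0.0495), and was -0.39 without NC1153 replicate 2.

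**Figure D3:**
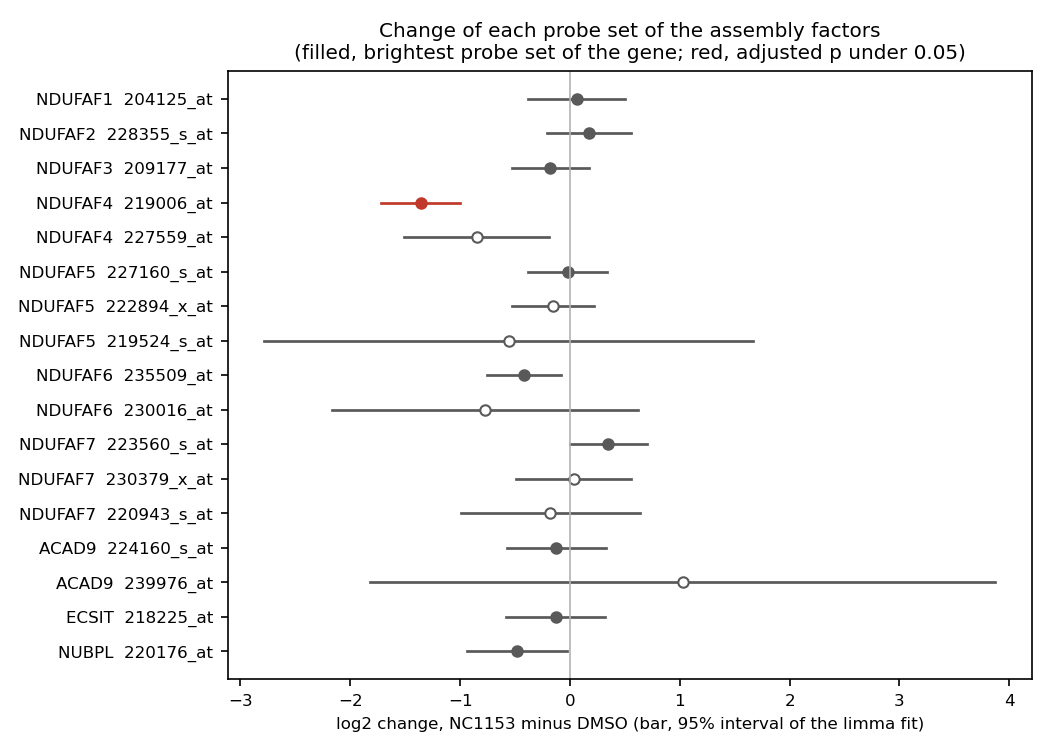
Log2 change, NC1153 minus DMSO, of the 17 probe sets of the 10 assembly factors, with 95% intervals of the limma fit (filled, brightest probe set of the gene; red, adjusted p under 0.05). The NDUFAF4 probe set 219006_at at -1.36 is the red point, and the widest intervals belong to dim probe sets of ACAD9 and NDUFAF5.

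For the 9 uncalled genes the intervals of the brightest probe sets show how large a missed change could be, given the deposited scaling. These unadjusted 95% intervals ran from -0.94 at the lowest to 0.70 at the highest. A 2-fold change in either direction lay outside all 9 under this variance model and scaling. With spike-in centring NUBPL was at -0.915 and NDUFAF6 at -0.85, nearer to a 2-fold fall. The dimmer NDUFAF6 probe set, 230016_at, had an interval of -2.17 to 0.62, which takes in such a fall. Both NC1153 arrays lay below both DMSO arrays for 3 of the 10 genes (NDUFAF4, NDUFAF6 and NUBPL), against 23.8% of all genes, and above them for NDUFAF7, against 24.5% of all genes. Counted by probe set, 5 of 17 lay below, against 21.2% of all probe sets, and 1 above, against 22.8%. The median change of the 10 genes was -0.13, against 0.002 over all genes. With spike-in centring all 10 values were negative, with a median of -0.56 that is to be read against -0.41 over all probe sets.

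The subunits that these factors assemble were read from 33 of 37 listed genes, the other 4 being not analysed here. Limma called 0 of them, against 5.94% of all genes. An unadjusted p under 0.05 was found for 4 (12.1%, against 20.3% of all genes), and the median change was 0.041. The blocked fit called 2, NDUFA5 and NDUFA10, and over the array it called 3997 of 54613 probe sets. NDUFA10, a membrane arm subunit, had signals of 3827 and 4103 with NC1153, against 5286 and 5773 with DMSO. Its change was -0.48 (limma adjusted p = 0.092), and it passed with the block (0.041) and without dim probe sets (0.044). NDUFA5 of the Q module had signals of 3767 and 5884 with NC1153, against 7720 and 7094 with DMSO, a change of -0.65 (adjusted p = 0.12). It passed with the block (adjusted p = 0.014) and without NC1153 replicate 2 (-0.97, adjusted p = 0.011), and was -0.33 without NC1153 replicate 1 (adjusted p = 0.20). The 2 other Q module subunits measured, looked up after the NDUFAF4 value was seen, were NDUFS3 with -0.29 (adjusted p = 0.34) and NDUFS7 with -0.12 (adjusted p = 0.81).

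Of 10 further complex I assembly proteins, 0 were called by limma and 5 had an unadjusted p under 0.05 (against 20.3% of all genes), with a median change of -0.28. Both NC1153 arrays lay below both DMSO arrays for 6 of them (60.0%, against 23.8% of all genes). TIMMDC1, a membrane protein of the early Q module steps at which NDUFAF4 also acts, had signals of 7200 and 6755 with NC1153, against 5125 and 5448 with DMSO. Its change of 0.40 did not pass (adjusted p = 0.15) and was -0.03 with spike-in centring. TMEM186, another assembly protein, had a change of -0.53 (adjusted p = 0.20).

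Assembly factors of complexes II to V were all measured, 33 genes with a median of -0.21. COX18, which helps insert a cytochrome oxidase subunit into the inner membrane, fell, with signals of 1291 and 1237 with NC1153, against 2117 and 1930.2 with DMSO, a change of -0.68 (adjusted p = 0.042). It did not pass when any one of the 4 arrays was left out (adjusted p from 0.062 to 0.33), with median centring (0.45) or without the trend (0.55). The other 32 did not pass, and over all genes 5.94% were called, 2.84% as lower. An unadjusted p under 0.05 was found for 12 of the 33 (36.4%, against 20.3% of all genes), and both NC1153 arrays lay below both DMSO arrays for 19 (57.6%, against 23.8%). Of 35 measured subunits of complexes II to V, with a median of 0.041, limma called 0 and 6 had an unadjusted p under 0.05 (17.1%, against the same 20.3%). ATP5MC1, of the ATP synthase ring, had a change of -0.62 (adjusted p = 0.062). ATP5MC1 passed with the block (0.0092), with spike-in centring (-1.05, adjusted p = 0.040), with dim probe sets left out (0.028) and without DMSO replicate 2 (-0.79, adjusted p = 0.042). SDHD, a membrane anchor of complex II, had a change of -0.45 (adjusted p = 0.15) and passed without NC1153 replicate 2 (-0.60, adjusted p = 0.035).

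Among 19 iron-sulphur cluster genes the median change was 0.007, and 10 had an unadjusted p under 0.05 (52.6%, against 20.3% of all genes). NFU1 was called, where 5.94% of all genes were called, 3.09% as higher. This late-acting cluster carrier rose, with signals of 3430.0 and 3296 with NC1153, against 2336 and 2112 with DMSO, a change of 0.60 (adjusted p = 0.0497). It did not pass when any one array was left out (adjusted p from 0.054 to 0.35), with median centring (0.62), with spike-in centring (0.17, adjusted p = 0.73) or without the trend (0.57). Of 9 acyl-CoA dehydrogenase genes beside ACAD9, limma called 0 and 1 had an unadjusted p under 0.05 (11.1%), with a median of -0.14. ACADVL, the enzyme of very long chain fatty acids and closest relative of ACAD9, had a change of 0.47 (adjusted p = 0.30), and ACADM, for medium chains, one of -0.34 (adjusted p = 0.32). ACADVL passed without NC1153 replicate 2 (0.77, adjusted p = 0.039).

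**Figure D4:**
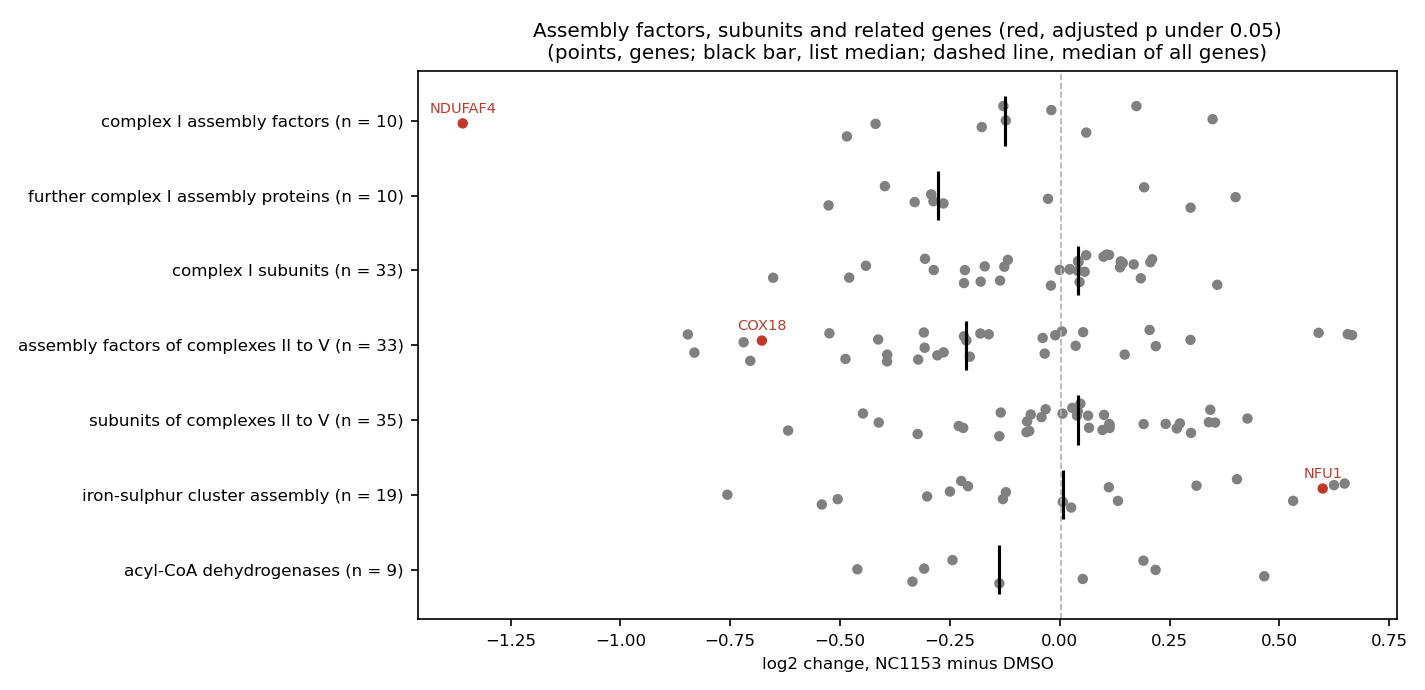
Log2 change, NC1153 minus DMSO, of each measured gene in 7 lists, with a black bar at each list's median and a dashed line at the median of all genes (0.002). NDUFAF4 at -1.36 lies farthest from 0 among the genes plotted, and COX18 and NFU1 are the other called genes.

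Sequence next to the start of 9 factors was found in RefSeq promoter windows (GRCh38.p14, 13 windows). The 250 bases before each start were searched on both strands for CACGTG (the E-box bound by MYC and MAX), GCGCA and GCGC spaced by any 1 base (nuclear respiratory factor NRF1), CCGGAAG (ETS family) and TGATGNAA (the C/EBP-ATF element of ATF4). NDUFAF4, the called gene, and ACAD9, which holds most matches and was not called, are shown to compare them, with matches in capitals. For NDUFAF4 the stretch at chr6:96897892-96898082 (minus strand) ends where KLHL32 starts on the other strand, and for ACAD9 it is chr3:128879370-128879619 (plus strand).
NDUFAF4: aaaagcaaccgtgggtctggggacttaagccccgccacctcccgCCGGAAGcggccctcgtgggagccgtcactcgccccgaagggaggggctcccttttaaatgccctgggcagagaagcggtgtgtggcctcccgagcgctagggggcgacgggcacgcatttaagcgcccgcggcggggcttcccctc
ACAD9: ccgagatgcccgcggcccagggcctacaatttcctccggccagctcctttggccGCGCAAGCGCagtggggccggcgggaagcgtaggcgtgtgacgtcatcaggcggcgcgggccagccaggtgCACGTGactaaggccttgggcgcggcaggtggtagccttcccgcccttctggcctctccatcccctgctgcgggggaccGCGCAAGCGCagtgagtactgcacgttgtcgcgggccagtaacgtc

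The NDUFAF4 stretch holds CCGGAAG, 147 bases before the start, and none of the other motifs, so these letters of the E-box are not in this window. ACAD9 holds CACGTG at 125 bases and the NRF1 motif at 196 and 46 bases before its start. NDUFAF5 holds CACGTG at 126 bases. Over all 35116 windows, CACGTG was found in 6.34%, the NRF1 motif in 5.07%, CCGGAAG in 8.52% and TGATGNAA in 3.14%. A match is a description of letters and says nothing here on whether a factor bound.

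Several factors start beside a gene on the other strand, a layout the choice of members did not use, and these neighbours were named after their values were seen. NDUFAF7 starts 62 bases from CEBPZ, whose protein takes part in ribosome assembly. CEBPZ had signals of 1612 and 1496 with NC1153, against 3083 and 2968 with DMSO, and fell by 0.96 on the log2 scale (adjusted p = 0.0084; 0.27 with median centring and 0.48 without the trend). The log2 ratio of CEBPZ to NDUFAF7 was 0.15 and 0.12 with NC1153, against 1.46 and 1.43 with DMSO. It differed by -1.31 without overlap (exact permutation p = 0.333, two-sided, the smallest possible), and it is given as a description of a pair picked for its values.

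NDUFAF5 starts 109 bases from ESF1, which encodes a nucleolar protein of ribosomal RNA processing. The brighter ESF1 probe set had signals of 582 and 629 with NC1153, against 981 and 981 with DMSO, a change of -0.70 that did not pass (adjusted p = 0.072). It passed with the replicate block (0.032), without dim probe sets (0.030) and on log2(signal + 50) (-0.66, adjusted p = 0.049). The dimmer one, 222765_x_at, was called lower at -1.22 (adjusted p = 0.016). The log2 ratio of ESF1 to NDUFAF5 was -1.11 and -1.11 with NC1153, against -0.35 and -0.51 with DMSO (exact permutation p = 0.333, two-sided, the smallest possible). It too describes a pair named after its values were seen.

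NDUFAF2 starts 135 bases from ERCC8, a gene of transcription-coupled DNA repair, which had a change of 0.44 (adjusted p = 0.27). The log2 ratio of ERCC8 to NDUFAF2 was -1.79 and -1.52 with NC1153, against -2.14 and -1.71 with DMSO. Here the groups overlapped (exact permutation p = 0.667, two-sided). NDUFAF3 has a start 145 bases from that of DALRD3, and others at 421 and 616 bases, the one at 421 facing it. The brighter DALRD3 probe set had 0.22 (adjusted p = 0.68), and the dimmer one, 218808_at, had -0.018. NUBPL starts 73 bases from NUBPL-DT, for which no value is given here. NDUFAF4 starts 192 bases from KLHL32, whose signals of 24.8 and 40.6 with NC1153, against 50.8 and 27.5 with DMSO, lay below the array-wide median signal, so no level of it can be set against that of NDUFAF4.

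**Figure D5:**
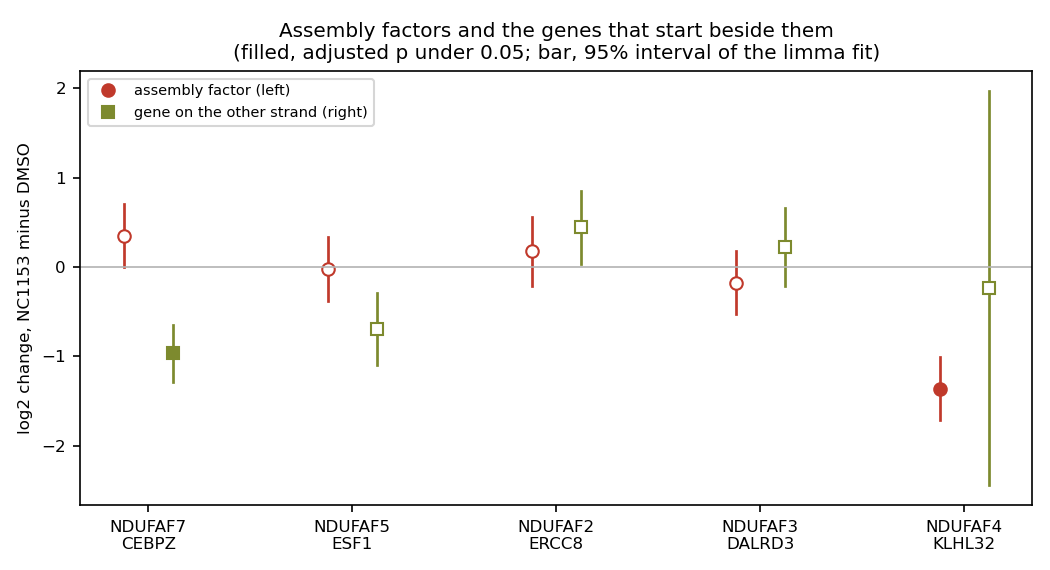
Log2 change, NC1153 minus DMSO, of 5 assembly factors (circles) and of the gene that starts beside each on the other strand (squares), with 95% intervals of the limma fit; filled symbols passed the adjusted threshold. CEBPZ at -0.96 and NDUFAF4 at -1.36 are filled, and their neighbours are not.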

How the data were processed

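RNA of 4 Kit225 samples was hybridised to Affymetrix HG-U133 Plus 2.0 arrays. The deposited values are intensities on a linear scale, scaled by the authors so that each array's trimmed mean is 500, per the file headers and the values, with software not given in the sources used here. A second table deposited by the authors holds RMA log2 values and raw p-values of the probe sets they selected with limma and q-values, per the file headers. It served as a comparison.

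Here log2 of the signal was fitted with limma 3.58.1 (lmFit, eBayes with a variance trend) in R 4.3.3 over 54613 non-control probe sets, two-sided, with Benjamini-Hochberg adjustment at 0.05. The number of arrays limits the precision. Probe sets were named by the platform annotation, with symbols updated through RefSeq: 41091 had 1 gene, 1801 several and 11721 none. A probe set listed under the rat gene Ndufaf4 was left out. The members and lists were chosen with earlier results of these data known. Besides all members, the text names in each list up to 2 genes called in each direction, or else the 2 of smallest p, with ACADVL, NDUFA12, NUBP1 and TMEM126B always (NUBP2 was not used here). Alternatives covered the variance model, scaling, pseudocount, dim probe sets, the replicate block, left-out arrays and probe set choice.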

Additional observations from a re-analysis of the deposited data

How the results depend on the processing

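Deviations of equally numbered arrays correlated with r = 0.055 over all probe sets and 0.12 over the brighter ones. Array names share a number within each replicate, but no label says that it marks a batch, and there are 2 pairs, so the fit without a block is the one reported. With the replicate block 3997 probe sets were called, 1 assembly factor gene (NDUFAF4) and 2 complex I subunit genes (NDUFA10 and NDUFA5), and NDUFAF4 227559_at passed (adjusted p = 0.034). Over the array, 0 probe sets were called without the variance trend, 47 with median centring, 1104 with spike-in centring, 3309 without dim probe sets, and 1130 to 2626 when single arrays were left out. NDUFAF4 219006_at kept its sign throughout and its call in all but 2 refits, so the count of assembly factor genes was 0 without the trend and with median centring, and 1 to 1 with single arrays left out. The count of complex I subunit genes was 1 without dim probe sets and 0 to 1 with single arrays left out (NDUFA5 without NC1153 replicate 2). Signs of uncalled genes turned with spike-in centring for NDUFAF1 (-0.37), NDUFAF2 (-0.26), NDUFAF7 223560_s_at (-0.083) and 230379_x_at (-0.40), TIMMDC1 (-0.03), CD79B (-0.012), NDUFA12 (-0.32) and DALRD3 (-0.21). They also turned with median centring for NDUFAF1 (-0.028) and 230379_x_at (-0.055), and with quantile normalization for 230379_x_at (-0.022). With single arrays left out, NDUFAF1 ranged from -0.215 to 0.335, NDUFAF2 from -0.048 to 0.40, NDUFAF5 227160_s_at from -0.097 to 0.059 and 219524_s_at from -1.35 to 0.23. NDUFAF7 230379_x_at ranged from -0.16 to 0.23 and 220943_s_at from -0.81 to 0.45, ACAD9 224160_s_at from -0.345 to 0.10 and 239976_at from -0.44 to 2.49, and ECSIT from -0.36 to 0.10. TMEM126B ranged from -0.106 to 0.052 and NDUFS7 from -0.311 to 0.074. The causes were not tested. The 2 dim member probe sets have no value once dim probe sets are left out.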
